A study of Sus scrofa with 20 samples.

Results

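The 10 genes described here mark B cells, the lymphocytes that carry antibody on their surface and mature into antibody-secreting plasma cells. They were chosen by their gene symbol and by role: CD79A and CD79B, the signalling chains of the B cell receptor, CD22, CD72 and MS4A1, surface molecules, PAX5, EBF1 and POU2AF1, factors in the nucleus, and BLNK and BANK1, adaptors that pass on the signal of the receptor. These are 10 of 13664 genes named on the array, and the array reads them with 24 probe sets. In each gene the probe set of highest mean over all arrays stood for the gene and is called its main value.

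PBMC, the mononuclear cells of blood, were taken at an age of 63 days from German Landrace piglets on diets low (L), medium (M) or high (H) in phosphorus and calcium. The M diet was the control with recommended amounts. The study calls the ratio of calcium to phosphorus constant, although the ratio it analysed in the feed rose from L to M to H. RNA of 20 animals was analysed on 1 snowball array each, a pig expression array: 6 L animals (3 females and 3 males), 7 M animals (4 females and 3 males) and 7 H animals (3 females and 4 males), where per the study's methods the males were castrated and the piglets came from shared litters that the sample labels do not name. Values are RMA values on a log2 scale, so that a difference of 1 is a doubling, and the number of arrays limits their precision. Array medians lay between 4.29 and 4.46, and no arrays were alike to the point of a repeat (correlations between arrays 0.958 to 0.985 over all probe sets).

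In B cells the membrane antibody binds the antigen, and CD79A and CD79B, which are bound to it as a pair, carry the tyrosine motifs that the kinases LYN and SYK use to start the signal. BLNK collects the next enzymes, BANK1 is a scaffold close to the receptor, and CD22 and CD72 hold inhibitory motifs that dampen the signal. EBF1 and PAX5 switch on and maintain the B cell programme in the bone marrow, CD79A being a classical target of both in mice, and POU2AF1 is a coactivator of octamer-binding factors. MS4A1, known as CD20, sits in the membrane of B cells from the precursor stage until they become plasma cells.

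All 10 genes were measured in these PBMC. Their main probe sets exceeded the array median on each of the 20 arrays, and 20 of the 24 probe sets passed the filter on low values, which kept probe sets above the array median on at least 16 of 20 arrays. The 4 that did not pass belong to CD22, CD72, EBF1 and MS4A1, with means of 2.21, 4.49, 2.58 and 4.72, and were not tested.

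CD79B was lower in H than in L animals at an unadjusted p of 0.0333, but its q over all probe sets was 0.503 with limma, so it was not called. Its values ran from 8.99 to 10.28 with a median of 9.67 in L animals. In M animals they ran from 8.25 to 10.23 with a median of 9.39, and in H animals from 7.99 to 9.74 with a median of 9.28. The diets overlapped: 3 of 7 H animals lay below every L animal, 6 of 7 lay below the L median, and none lay above all L animals. Means were 9.72 ± 0.46 in L (SD, n = 6), 9.36 ± 0.79 in M (SD, n = 7) and 8.94 ± 0.66 in H animals (SD, n = 7). The fitted difference of H minus L was -0.77 (SE 0.34), a fold of 0.587, with a 95% interval from -1.47 to -0.07, and the two-sided exact permutation test of the 13 animals gave p = 0.0408. The second kept probe set of CD79B had a difference of -0.53 (SE 0.28, q = 0.576 with limma). Leaving out the H animal with the lowest value, H17, moved the difference of the main value to -0.57 (q = 0.901 with limma), and leaving out L6, the lowest L animal, moved it to -0.92 (q = 0.425 with limma). The unadjusted p exceeded 0.05 without moderation of the variances (0.0598) and when any 1 of 5 animals, L5, L15, H3, H7 or H17, was left out (0.0673 to 0.0961).

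Marker levels of other blood cells differed between the same animals, T cell markers being lower and myeloid markers higher on average in H than in L animals. The mean of 14 T cell markers ran from 8.68 to 9.17 in L and from 7.90 to 8.91 in H animals, that of 9 monocyte markers from 7.75 to 8.93 and from 8.56 to 9.81, and that of 9 neutrophil markers from 7.21 to 8.67 and from 7.65 to 9.19. With the neutrophil and monocyte levels as covariates the difference of CD79B was -0.39 (q = 0.999 with limma), and with the T cell level it was -0.27 (q = 0.701). In such bulk samples fewer B cells and less RNA per B cell cannot be told apart.

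CD79A, the other chain, had a smaller difference that did not pass the test. It ran from 8.78 to 9.96 with a median of 9.37 in L animals, from 8.34 to 9.999 with a median of 9.15 in M animals and from 8.35 to 9.84 with a median of 9.06 in H animals. The ranges of the 3 diets covered each other almost wholly. The difference of H minus L was -0.29 (SE 0.27), with an interval from -0.86 to 0.27 and q = 0.776 in limma (exact permutation p = 0.317). M minus L was -0.30 (SE 0.27, exact permutation p = 0.301) and H minus M was 0.01 (SE 0.26, exact permutation p = 0.995). Whether the differences of CD79A and CD79B differ from each other was not tested. The other kept probe sets of CD79A had H minus L values of -0.35 and -0.14.

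**Figure D1:**
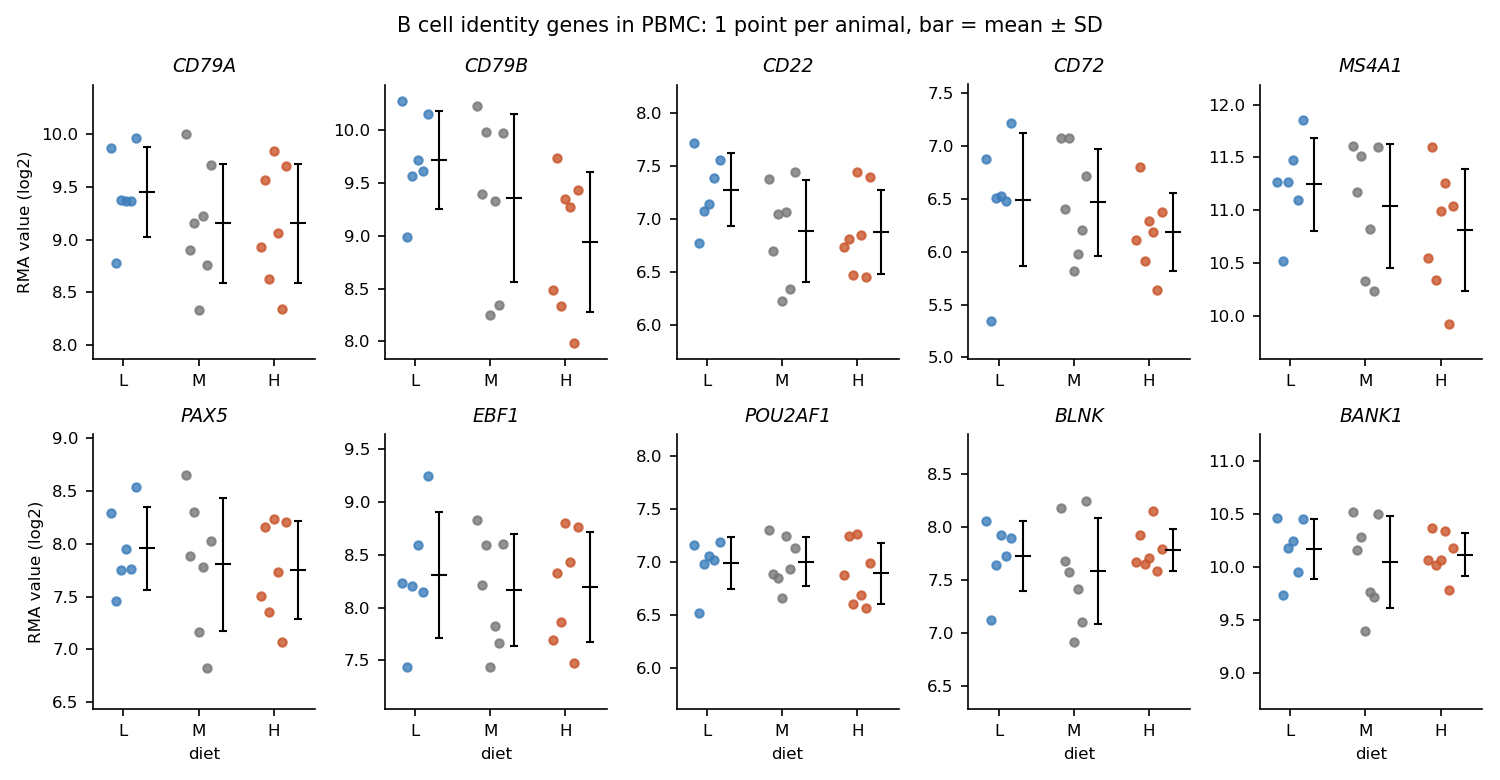
RMA values (log2, vertical axis, all panels spanning the same number of units) of the main probe set of each of the 10 genes by diet (L, M, H); each point is 1 animal (6 L, 7 M and 7 H) and the bars are the mean ± SD. The diets overlap in all 10 panels, CD79B has its lowest 3 H animals below every L animal, and the lowest L point is animal L6 in each.

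Among the surface molecules, MS4A1 had a range from 10.52 to 11.85 with a median of 11.26 in L animals, from 10.24 to 11.61 with a median of 11.18 in M animals and from 9.93 to 11.60 with a median of 10.99 in H animals. Of the 7 H animals 6 lay below the L median, and 2 lay below every L animal. The difference of H minus L was -0.43 (SE 0.28, interval from -1.01 to 0.15) with q = 0.669 in limma and p = 0.161 in the exact permutation test. It was -0.59 without L6 and -0.26 without H17. CD22, a sialic acid-binding inhibitor of the receptor, ran from 6.77 to 7.72 (median 7.27) in L, from 6.22 to 7.44 (median 7.05) in M and from 6.45 to 7.44 (median 6.81) in H animals. Both M and H animals were lower on average than L animals, 3 of 7 in each diet lying below every L animal. These differences were -0.40 (SE 0.21) for M minus L, with q = 1.0 and an interval from -0.85 to 0.04, and -0.39 (SE 0.21) for H minus L, with q = 0.606 and an interval from -0.83 to 0.06 (limma). The exact permutation tests gave p = 0.118 and 0.0886. CD72, an inhibitory lectin-like receptor, had a lowest L value of 5.35 in L6, below all other 19 animals, and the remaining animals lay between 5.63 and 7.22. Its H minus L difference was -0.29 (SE 0.26, exact permutation p = 0.298). Without L6 it was -0.53 (q = 0.449 with limma, unadjusted p of 0.0328), and without L15 it was -0.12.

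The nuclear factors differed less between diets than they varied within them. PAX5 ran from 7.46 to 8.53 in L, from 6.82 to 8.65 in M and from 7.07 to 8.23 in H animals, with medians of 7.86, 7.88 and 7.73. H minus L was -0.20 (SE 0.26, interval from -0.75 to 0.35) and M minus L was -0.16 (SE 0.26). EBF1 ran from 7.44 to 9.24 in L, from 7.44 to 8.82 in M and from 7.47 to 8.80 in H animals, so that the lowest animals of the diets were nearly level, and its medians were 8.22, 8.22 and 8.33. H minus L was -0.11 (SE 0.28, interval from -0.70 to 0.48), and the sign turned when L15, the highest animal, was left out (0.10). POU2AF1 had the smallest spread between animals of all 10 genes, from 6.51 to 7.30, and differences of -0.10 (SE 0.15) for H minus L, 0.02 (SE 0.15) for M minus L and -0.11 (SE 0.14) for H minus M.

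Of the adaptors, BLNK was the only one of the 10 genes with an H minus L difference above 0. Its main probe set ran from 7.12 to 8.06 (median 7.81) in L, from 6.91 to 8.25 (median 7.58) in M and from 7.59 to 8.15 (median 7.71) in H animals. The H values were thus close together, with an SD of 0.19 against 0.50 in M animals, and no H animal lay below the M median. The second kept probe set of BLNK did not share this, with an SD of 0.49 in H, 0.38 in L and 0.67 in M animals, 3 of 7 H animals below the M median and an H minus L value of 0.31 (SE 0.28, q = 0.77 with limma). For the main probe set the difference was 0.07 (SE 0.19) for H minus L, with an interval from -0.34 to 0.47, and 0.22 (SE 0.19, exact permutation p = 0.351) for H minus M. BANK1 lay between 9.73 and 10.46 in L, between 9.39 and 10.52 in M and between 9.78 and 10.37 in H animals. Its differences were -0.05 (SE 0.18), -0.13 (SE 0.18) and 0.08 (SE 0.17) for H minus L, M minus L and H minus M.

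**Figure D2:**
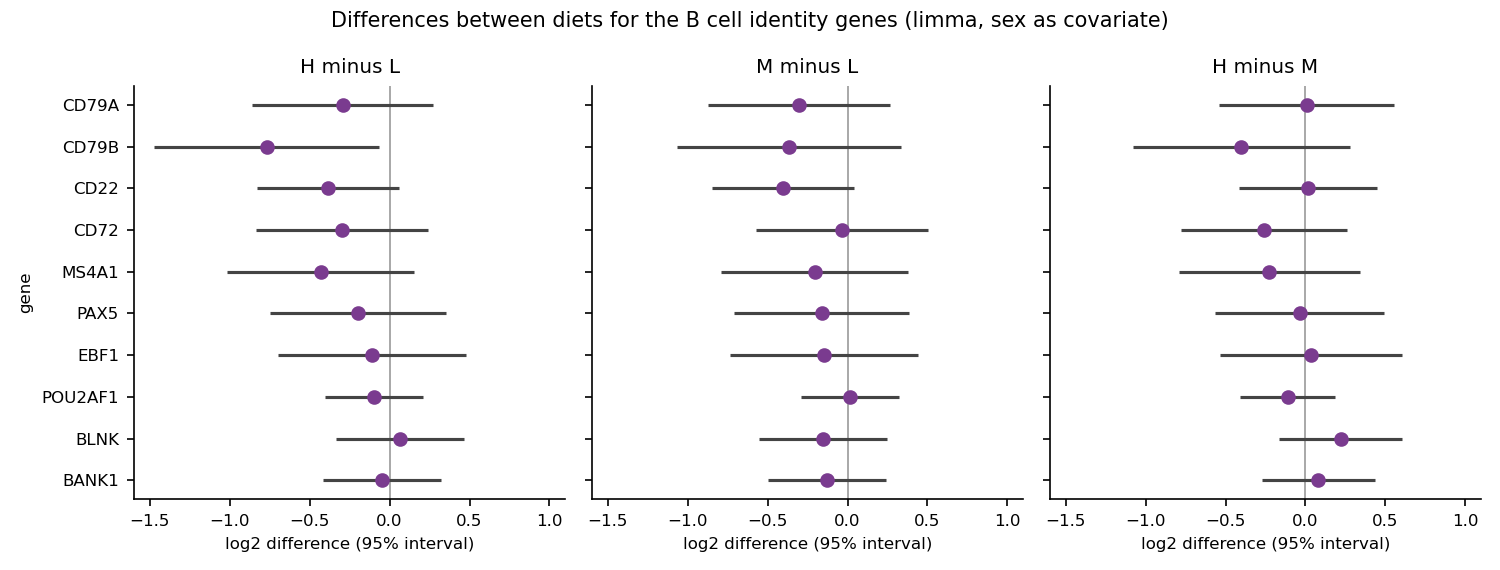
Log2 differences (horizontal axis) of H minus L, M minus L and H minus M for the main probe set of each gene, fitted in limma with sex as a covariate; points are the differences and lines their 95% intervals. Of the 30 intervals that of CD79B in H minus L, from -1.47 to -0.07, is the one that leaves out 0, and it no longer did without any 1 of 5 animals or without moderation.

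A probe set was called at the cutoffs of the study, an unadjusted p under 0.01 with a Storey q under 0.21. In the study, which fitted litter and filtered by presence calls, that q was equivalent to that p. Here the q was stricter, IL4R having q = 0.426 at an unadjusted p of 0.00171 in H minus L (limma). The study lists IL4R, BCL6 and CD247 as responsive between L and H, so calls here are not the study's own outcome. In H minus L 0 of the 20 kept probe sets of these genes were called, where 0.0271% of all 22127 kept probe sets were. In M minus L 0 were called (0.0% of all) and in H minus M 0 (0.0226% of all). At an unadjusted p under 0.05 limma found 1 of the 20 in H minus L, 0 in M minus L and 0 in H minus M, and at an unadjusted p under 0.01 it found 0 in each. In terms of genes, 1 of 10 was lower at an unadjusted p under 0.05 in H minus L, where 4.21% of all 9346 kept genes were lower and 4.96% higher. None of the 10 was past it in M minus L, where 1.02% of all genes were lower and 0.653% higher, nor in H minus M, where 3.2% were lower and 3.98% higher.

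As a description of the set, 9 of 10 genes had values below 0 in H minus L, where 54.9% of all genes did, and the median difference was -0.25 beside -0.02 over all genes. In M minus L 9 of 10 were below 0 (53.4% of all genes), with a median of -0.16 beside -0.01. In H minus M 5 of 10 were below 0 (51.8% of all genes), with a median of -0.01 beside -0.01. The M minus L and H minus L values share the L animals, and the genes varied together between animals, so these counts are not 10 separate observations. Without L15 the median of H minus L was -0.09, and without L6 it was -0.37. With the T cell level as a covariate it was 0.16, and with the neutrophil and monocyte levels 0.05.

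Over the order of the diets, L to M to H, CD79B changed by -0.38 per step (SE 0.16, q = 0.463 with limma), with an unadjusted p of 0.0291. CD22 changed by -0.19 per step (SE 0.11, q = 0.586), and the trends of the other 8 genes had unadjusted p-values of 0.131 and above. Males minus females, over all diets, ranged from -0.19 (CD22) to 0.004 (POU2AF1) among the 10 genes, with the lowest unadjusted p at 0.296 and a q of 1.0 in each case. The H minus L difference, taken with its sign, was lower in females than in males for all 10 genes, whichever side of 0 each sex lay on. Males minus females, this difference was 0.84 (SE 0.66) for CD79B, 0.61 (SE 0.53) for MS4A1 and 0.29 (SE 0.35) for BANK1, the lowest, and no gene had an unadjusted p under 0.184 (limma, q at 0.804 and above). Each sex then counted 3 or 4 animals per diet. The 10 genes varied together between animals, so their shared direction is not 10 separate observations. The share of all genes with this direction was not counted. H17, the H animal with the lowest values, is a female, and L6, the L animal with the lowest values, is a male.

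Beside diet, the animals themselves differed widely in these genes. In 11 of 20 animals all 10 genes lay on 1 side of their mean, and in the other 9 they lay on both sides, as in M2 with 5 genes above and H12 with 4. H17 had the lowest value of the H animals in all 10 genes and L6 the lowest of the L animals in all 10. M14 was the lowest M animal in 8 genes and M19 in the other 2, MS4A1 and PAX5. At the upper end, M1 had the highest value of the M animals in 8 genes, L15 of the L animals in 6 and L5 in the other 4. Averaged over the 10 genes, the deviation from the mean of all animals ran from -0.73 in M14, -0.70 in H17, -0.57 in M19 and -0.51 in L6 to 0.44 in L5, 0.60 in M1 and 0.63 in L15. Each diet thus held low animals, and the highest H animal, H4, lay at 0.28.

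**Figure D3:**
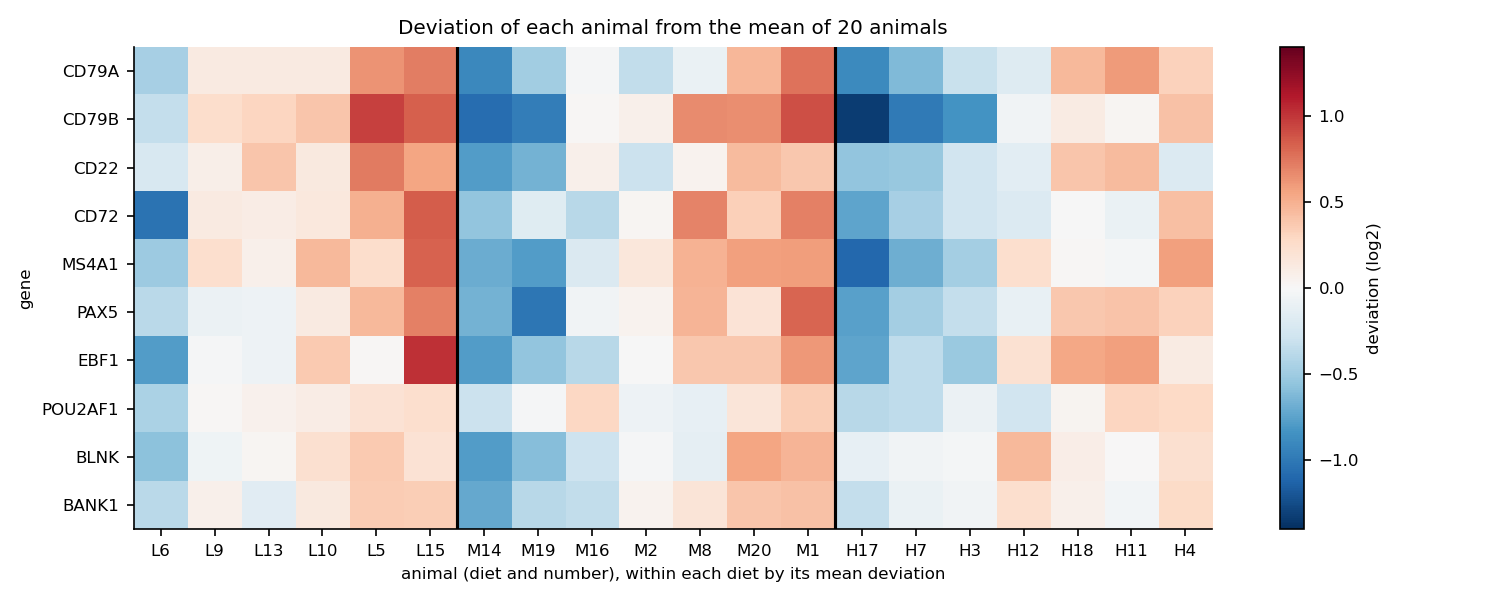
Deviation (log2, colour scale) of each of the 20 animals (columns, by diet and within it by mean deviation) from the mean of all animals for the 10 genes (rows). L6, M14, M19, H3, H7 and H17 lay below the mean in all 10 genes and L5, L10, L15, M1 and M20 above it in all 10, and the other 9 columns are mixed, H12 running from -0.27 in POU2AF1 to 0.45 in BLNK.

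This spread was large beside that of other genes. After diet and sex were subtracted, the residual SD was 0.68 for CD79B, higher than in 97.5% of all kept genes, 0.56 for MS4A1 and EBF1, 0.54 for CD79A and 0.52 for PAX5. It was lower for BLNK (0.37), BANK1 (0.33) and POU2AF1 (0.27), the last being close to the median of all genes, 0.27. The median over the 10 genes was 0.52.

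Pairs of the 10 genes were correlated across the 20 animals after diet and sex had been subtracted. Over the 45 pairs Pearson's r ran from 0.58 to 0.95 with a median of 0.82, and Spearman's rho from 0.54 to 0.94 with a median of 0.81. The highest Benjamini-Hochberg adjusted p of the 45 was 0.00794 for r and 0.0148 for rho (permutation test, two-sided, 100000 resamples). As the genes were chosen as markers of 1 cell type, a test of r against 0 adds little to the description. The permutation also treated the values of the 20 animals after the fit as freely exchangeable. When in each pair the 2 animals farthest from the median of the first gene were left out, r ran from 0.38 to 0.94 with a median of 0.78. The median r was 0.88 in the 10 females and 0.78 in the 10 males. Over all 43669185 pairs of kept genes the median r was 0.03, and 8.44% of pairs reached the lowest r of the 45. The values of an animal come from 1 array, so what is shared within an array is part of these correlations.

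CD79B and PAX5 were the most alike (r = 0.95), followed by CD79B and MS4A1 (0.94), CD79A and CD22 (0.94) and the adaptors BLNK and BANK1 (0.93). CD79A and CD79B, the chains that are bound as a pair, had an r of 0.90. The lowest values were those of POU2AF1 with BANK1 (0.58), BLNK (0.59), MS4A1 (0.66) and EBF1 (0.67), although POU2AF1 and CD79A had an r of 0.89. CD22 and CD72, both inhibitory receptors, had an r of 0.68.

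**Figure D4:**
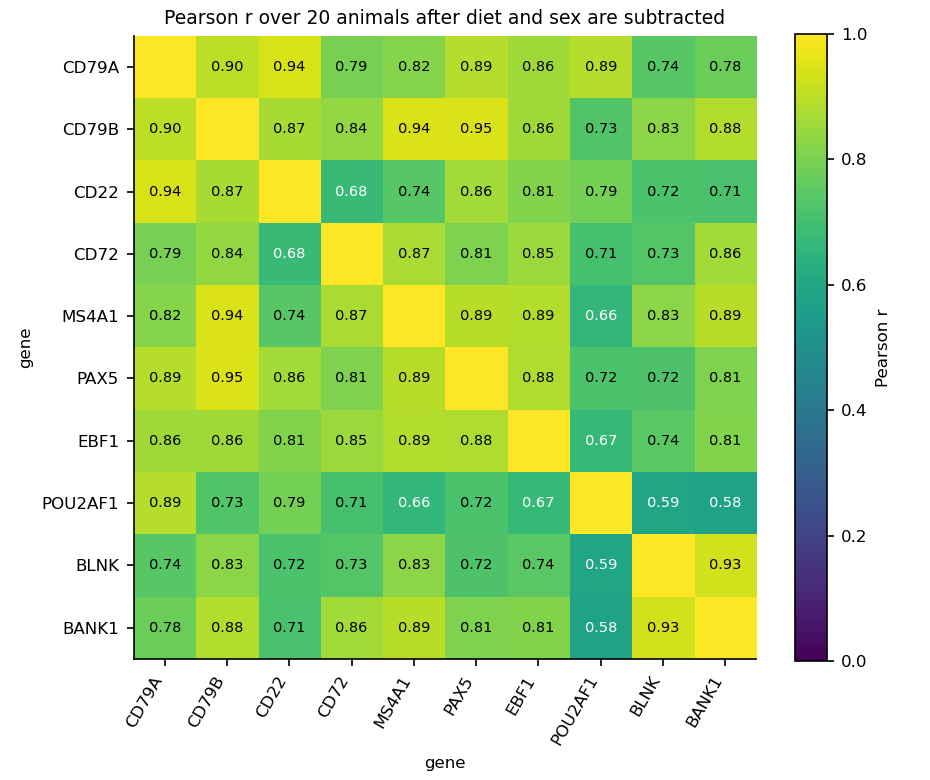
Pearson's r (colour scale and printed value) between the main values of each pair of the 10 genes over 20 animals, after the fit of diet and sex was subtracted. Values run from 0.58 for BANK1 and POU2AF1 to 0.95 for CD79B and PAX5, and the row of POU2AF1 holds the lowest values.

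Probe sets of 1 gene mostly followed each other. The second kept probe set of CD79A had an r of 0.98 to the main value, that of PAX5 0.95, that of CD79B 0.94, those of EBF1 0.93 and 0.92 and that of BLNK 0.85. For CD72 the kept probe sets had 0.78 and 0.70, and the third of CD79A 0.57. The second kept probe set of CD22 did not follow the first (r = -0.28). Its mean of 4.53 was close to the array median, and its M minus L value was 0.10 where the main value gave -0.40, so the values of CD22 rest on 1 probe set.

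The level of the background, the mean of 69 control probe sets without a target, was 3.78 ± 0.17 in L (SD, n = 6), 3.85 ± 0.23 in M (SD, n = 7) and 3.79 ± 0.11 in H animals (SD, n = 7), and was highest on the arrays of M19 (4.17), L6 (4.10) and M16 (4.03). It went against the B cell genes between animals. For CD79B, the gene of lowest p in H minus L, 8 measures were compared with it after diet and sex were subtracted: the background and the marker levels of 7 other cell types. With the background r was -0.51 (permutation p = 0.021, adjusted 0.0733) and rho -0.56 (p = 0.0117, adjusted 0.0468), and without the 2 arrays farthest from its median r was -0.35. All 10 genes, which varied together, had an r below 0 with it, from -0.77 to -0.40. The share of all kept genes with an r below 0 was not counted, so whether this is particular to the 10 genes was not tested. With the background subtracted as well, the 45 pairs had r from 0.45 to 0.93 with a median of 0.76, and the H minus L difference of CD79B was -0.76 (q = 0.277 with limma). Without the 3 arrays of highest background it was -0.96 (q = 0.19 with limma), with an unadjusted p of 0.0109, and was not called. In the same setting CD72 (-0.56), MS4A1 (-0.63) and CD22 (-0.48) also had an unadjusted p under 0.05 in H minus L. Thus 4 of 10 genes did where 1 had, and the median of the 10 genes was -0.39. The share of all genes past it in this setting was not counted. No gene was called. Of the 3 arrays that of L6 was the only one from an L or H animal. Leaving out L6 alone gave similar H minus L values, -0.92 for CD79B, -0.53 for CD72, -0.59 for MS4A1 and -0.48 for CD22. The part of the background in this shift was not tested. Both settings on the background were chosen after the data were seen.

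Of the cell types, the level of 14 T cell markers went with CD79B between animals, with r = 0.55 (permutation p = 0.0132, adjusted 0.0733) and rho = 0.62 (p = 0.00452, adjusted 0.0362), and r was 0.52 without the 2 farthest animals. The level of 9 neutrophil markers went the opposite way, with r = -0.49 (permutation p = 0.0275, adjusted 0.0733), rho = -0.47 (p = 0.0382, adjusted 0.0764) and r = -0.42 without 2 animals. For NK cell markers r was 0.44 (permutation p = 0.0528), for monocyte markers -0.32 (permutation p = 0.168), for erythroid markers -0.45 (permutation p = 0.0426), for platelet markers 0.18 (permutation p = 0.46) and for dendritic cell markers -0.01 (permutation p = 0.968), with adjusted p-values of 0.0845 and above, and rho was 0.49, -0.39, -0.42, 0.20 and 0.03. Without the 2 farthest animals these r were 0.46, -0.22, -0.38, 0.30 and 0.28. RMA brings arrays to 1 distribution, and the cell types are parts of 1 sample, so their levels are not free of each other. The part of cell type shares and of background in the differences between diets was not tested further.

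The genes whose values were most like the 10 over the 20 animals were taken as the 10 of highest r, among 9336 other genes, to the mean of the standardized members after diet and sex were subtracted. CD74, the invariant chain of MHC class II, came first (r = 0.96), followed by LAMP3, a lysosomal membrane protein (0.94), and TNFRSF13C, the receptor of the B cell survival factor BAFF (0.93). SCAPER (0.92), PLEKHA2, an adaptor that binds membrane phosphoinositides (0.91), SLA-DQB1, a class II beta chain of the pig (0.91), LIMD1 (0.91), RALGPS2, an exchange factor of Ral GTPases (0.91), BHLHE41, a transcription factor (0.91), and ZNF318, a zinc finger protein (0.91), completed them. The members themselves had r from 0.81 (POU2AF1) to 0.97 (CD79B) to this mean, of which they are part, the median of the other genes was 0.21, and 100 other genes reached 0.81. None of the 10 genes was called between diets. SLA-DQB1 had a difference of -0.53 (SE 0.25, q = 0.535 with limma) in H minus L, and CD74 one of -0.21 (SE 0.22).

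Other genes of B cells and markers of other cell types were described by list. Beside their counts stand the shares of all kept genes at an unadjusted p under 0.05 (limma). These were 4.96% higher and 4.21% lower in H minus L, and 3.98% higher and 3.2% lower in H minus M. Of 24 measured genes of B cell receptor signalling, 3 were higher and 0 lower in H than in L animals at an unadjusted p under 0.05, and 5 higher and 0 lower in H than in M animals. The list's median was 0.11 in H minus L and 0.14 in H minus M, and no gene of it was called. The 3 were DAPP1, an adaptor downstream of PI3K, with 0.41 (SE 0.18, q = 0.495), LYN, the kinase that phosphorylates CD79A and CD79B, with 0.37 (SE 0.17, q = 0.529), and SH3BP5, a regulator that binds BTK, with 0.35 (SE 0.16, q = 0.518). In H minus M LYN had 0.46 (SE 0.17, q = 0.602), SH3BP5 0.42 (q = 0.605), DAPP1 0.40 (q = 0.661), STAP1, an adaptor, 0.49 (SE 0.22, q = 0.665), and PIK3CD, the catalytic subunit delta of PI3K, 0.27 (SE 0.13, q = 0.708). LYN and PIK3CD are also expressed outside B cells, LYN in myeloid cells. Between animals the 24 genes had a median r of 0.42 to the mean of the members. For the genes named as higher this r was -0.33 (LYN), -0.59 (SH3BP5), 0.03 (DAPP1), 0.44 (STAP1) and 0.56 (PIK3CD).

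Of 15 measured B cell transcription factors, 1 was higher and 0 lower in H than in L animals at the same unadjusted p, BCL6, a repressor of the germinal centre B cell that myeloid and T cells also express, with 0.63 (SE 0.27, q = 0.493 with limma). It was also higher in H than in M animals (0.55, q = 0.697). The list's median was -0.05 in H minus L, and the median r to the members was 0.67, while BCL6 had an r of -0.40. Among 20 other surface and response genes of B cells, IL4R, a chain of the interleukin receptor, was higher in H than in L animals by 0.63 (SE 0.18, q = 0.426 with limma), and CD83, an activation marker, was lower (-0.41, SE 0.17, q = 0.494). Higher in H than in M animals were CD37, a tetraspanin, by 0.29 (SE 0.13, q = 0.681) and again IL4R, by 0.36 (SE 0.17, q = 0.703). The median was -0.15, with 15 of 20 genes below 0, and the median r to the members was 0.64. Of the named genes IL4R had an r of -0.27, CD83 of 0.63 and CD37 of 0.33.

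Of 19 listed immunoglobulin and plasma cell genes 10 were measured, and no immunoglobulin gene was among these 10. At the same unadjusted p 0 of the 10 were higher and 1 was lower in H than in L animals. This was SSR4, part of the translocon complex of secretory cells, with -0.33 (SE 0.16, q = 0.537 with limma), and the median of the 10 was -0.24. In M minus L none of the genes of the 4 B cell lists was past an unadjusted p of 0.05, and none was called in any comparison. By the same measure 6 of 14 T cell markers were lower and 0 higher in H than in L animals, with a median of -0.37, among them THEMIS (-0.52, SE 0.17, q = 0.426) and CD247 (-0.56, SE 0.20, q = 0.434). In M minus L 2 were lower, THEMIS and LEF1. Of 9 monocyte markers 5 were higher and 0 lower in H minus L, with a median of 0.65, and of 9 neutrophil markers 4 were higher and 0 lower, with a median of 0.49. For NK cell markers it was 0 and 1 of 11 (median -0.12), for dendritic cell markers 1 and 0 of 7 (median 0.19), for platelet markers 0 and 0 of 7 (median 0.17) and for erythroid markers 0 and 0 of 7 (median -0.55), of which 3 were lower in H minus M. The differences of the lists were not set against those of the members by a test.

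**Figure D5:**
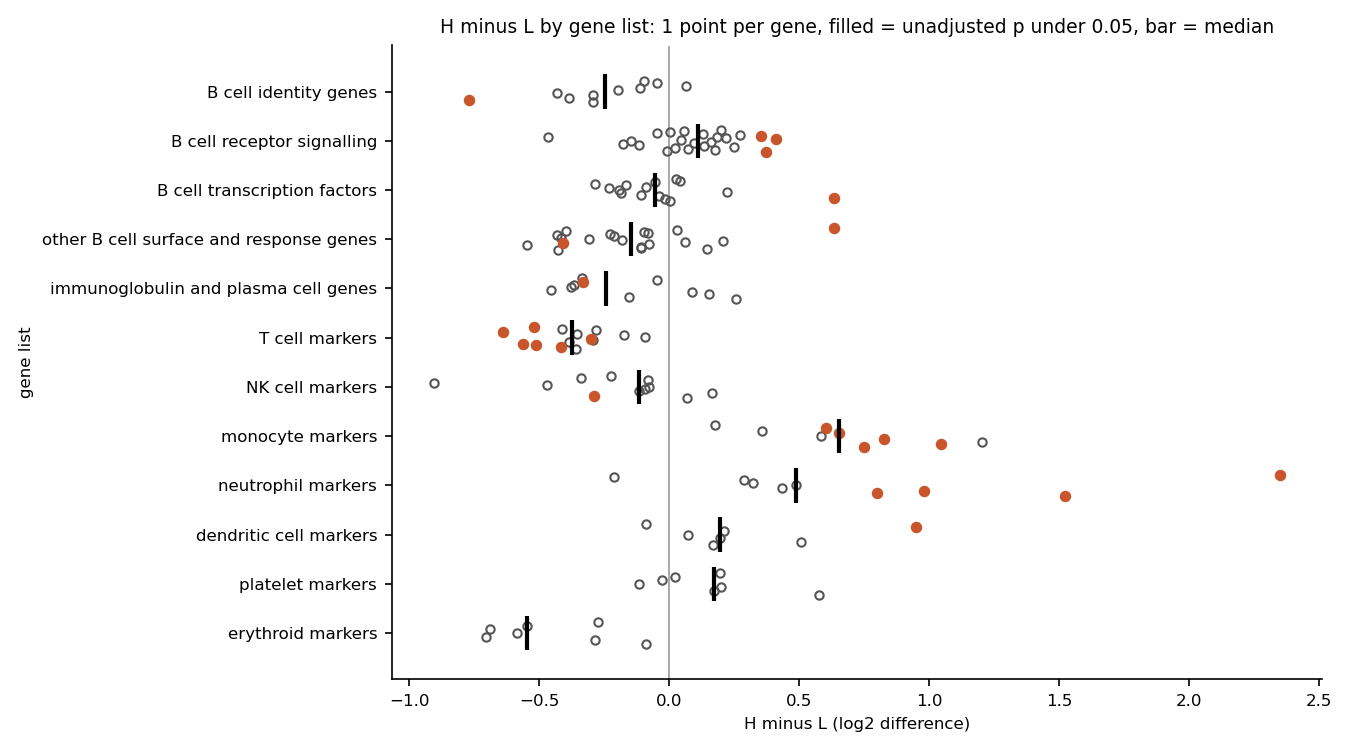
H minus L (log2 difference, horizontal axis) of each measured gene of the 10 B cell identity genes and of 11 other lists; filled points have an unadjusted p under 0.05 in limma and bars are medians. The median of the B cell identity genes is -0.25, that of the T cell markers -0.37, and those of the monocyte and neutrophil markers 0.65 and 0.49.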

How the data were processed

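PBMC RNA of 20 piglets was read on the snowball array (Affymetrix, 1 colour). Per the labels and the methods, GCOS 1.1.1 served for scanning, and the authors deposited RMA values on the log2 scale, which quantile normalization had brought to 1 distribution, so a shift of all transcripts would be largely removed. One array had been excluded by them in quality control. Of 47845 probe sets, 123 were controls, 26426 had 1 gene symbol, 0 several and 21419 none in the platform annotation, and 446 symbols were updated. As presence calls need probe intensities, the filter here retained 22127 probe sets that exceeded the array median on 80% or more of the arrays. Diets were compared in limma 3.58.1 (R 4.3.3) with sex as a covariate on all 20 arrays, with a Storey q over all kept probe sets. Litter is not in the labels and was not used here, so littermates count as separate animals. The animals of 2 diets were also permuted exactly (two-sided) for each main value. There were 1716 divisions for a comparison with L and 3432 for H and M, where the smallest possible p was 0.000583. Correlations used scipy 1.17.1 under Python 3.11.15. A description without p had been planned for the pairs of members, and their permutation p was added.

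The members, lists and tests were chosen with earlier results of these data known. Named genes were all members, in each list up to 6 genes of smallest p under 0.05 in any comparison of diets (otherwise 2), of which the report names those of the B cell lists and counts most of the markers, and the 10 genes most like the members. Alternatives were no filter and a 75th percentile filter, no sex term, no moderation, trend and robust, array weights, centring, cyclic loess, a Benjamini-Hochberg threshold, myeloid or T cell levels as covariates, only the diets compared, the mean of all probe sets and leaving out each animal, and, added after the data were seen, the background level as a covariate and leaving out the 3 arrays of highest background. The fit was tested on simulated data. No sequence or genome position was used here.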

Additional observations from a re-analysis of the deposited data

Results flagged for a closer look

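POU2AF1 in animal L6 had a value of 6.51, far below the other 5 L animals (6.98 to 7.19), the gap to the nearest being 0.681 of the range of the group. This was 1 of 30 combinations of gene and diet examined for a sample apart from the rest, and chance gives about 1 in 20. L6 was the lowest L animal in all 10 genes, and its array had the highest background level of the L animals (4.10). Without it the M minus L value of POU2AF1 was -0.081 where it had been 0.02, and the H minus L value was -0.20 where it had been -0.10. The part of the background in this value was not tested.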

How the results depend on the processing

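No gene of the 10 was called under any of the 15 other settings or without any of the 20 animals, and the lowest unadjusted p was 0.0109 (CD79B, H minus L, without the 3 arrays of highest background). Of 1050 values of single genes under these alternatives 83 changed sign, all of them uncalled; the cause was not tested. With myeloid levels as covariates, H minus L became 0.0305 for CD79A, 0.0737 for CD72, 0.22 for PAX5, 0.36 for EBF1, 0.0898 for BANK1 and 0.0027 for POU2AF1, M minus L 0.11 for CD72, 0.0376 for PAX5 and 0.0987 for EBF1, and H minus M 0.18 for PAX5. With the T cell level as a covariate, H minus L became 0.12 for CD79A, 0.19 for CD72, 0.0461 for MS4A1, 0.21 for PAX5, 0.36 for EBF1, 0.23 for BANK1 and 0.0742 for POU2AF1, M minus L 0.20 for CD72, 0.0202 for MS4A1, 0.0299 for PAX5, 0.0783 for EBF1 and 0.0056 for BANK1, and H minus M 0.0259 for MS4A1 and 0.18 for PAX5. Without the 3 arrays of highest background, H minus L was -0.072 for BLNK, M minus L -0.11 for POU2AF1, and H minus M -0.099 for CD79A, -0.0488 for CD22, -0.24 for EBF1 and -0.0969 for BANK1. With the background as a covariate, M minus L was 0.0891 for CD72, and H minus M -0.10 for CD79A, -0.0545 for CD22, -0.0923 for EBF1 and -0.0138 for BANK1. Array weights gave -0.042 for POU2AF1 in M minus L, and -0.0142 for CD22 and -0.10 for EBF1 in H minus M. In H minus M the fit without sex gave -0.0014 for CD79A and -0.0083 for CD22, cyclic loess -0.0146 for CD79A, and the mean of all probe sets -0.10 for CD22 and -0.0289 for EBF1.

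Leaving out 1 animal at a time, H minus L ran from -0.30 to 0.0998 for EBF1, from -0.0516 to 0.12 for BLNK and from -0.14 to 0.0236 for BANK1. M minus L ran from -0.25 to 0.13 for CD72, from -0.29 to 0.0134 for PAX5, from -0.32 to 0.0486 for EBF1 and from -0.081 to 0.072 for POU2AF1. H minus M ran from -0.13 to 0.18 for CD79A, from -0.10 to 0.13 for CD22, from -0.22 to 0.12 for PAX5, from -0.0848 to 0.18 for EBF1 and from -0.0293 to 0.16 for BANK1. Without a change of sign, H minus L ran from -0.44 to -0.13 for CD79A, from -0.53 to -0.12 for CD72, from -0.59 to -0.26 for MS4A1, from -0.30 to -0.0544 for PAX5 and from -0.20 to -0.0341 for POU2AF1, the lowest value without L6 in each. The median of the 10 genes in H minus L ran from -0.37 without L6 to -0.09 without L15, and it turned to 0.16 with the T cell level and to 0.05 with myeloid levels as covariates. No paired analysis was possible because the labels number the animals through and give no number to animals of different diets in common. The 6 or 7 animals a diet limit the precision to the intervals given.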
